A study of Rattus norvegicus with 2 samples.

Results

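miR-21 is a microRNA (miRNA), a short RNA that guides Argonaute proteins to messenger RNAs and represses them, and both strands of its hairpin were measured in the rat carotid artery with and without balloon injury. The guide strand, rno-miR-21, and the passenger strand, rno-miR-21*, were taken by name and make up 2 of the 350 rat miRNA features on the array. They were chosen because miR-21 is known to act in smooth muscle growth and in the neointima, the cell layer that forms inside an injured artery. Earlier results of these data were known when the choice was made. In the model, an inflated balloon catheter is drawn through the carotid artery, which strips its endothelium and stretches its wall. The injured artery was taken 10 days later and the other group was an artery without injury. Both came from male Sprague-Dawley rats weighing about 250 g, and no transgene, knockout or drug is named in the labels. Each group held 1 array, so the values have no replicate error, no test could be run and each comparison is between these 2 arrays. How many rats stand behind an RNA sample is unknown from the labels.

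A miRNA hairpin is cut from its primary transcript by Drosha and trimmed by Dicer to a duplex, of which Argonaute usually keeps the guide strand while the passenger strand is degraded. miR-21 is known to repress the translation inhibitor Pdcd4 and Spry1, an inhibitor of ERK signalling. Its gene is known to be transcribed in response to AP-1 and STAT3, and SMAD proteins are known to favour cutting of its primary transcript in smooth muscle cells. miR-21 is not a marker of 1 cell type, since smooth muscle cells, fibroblasts and macrophages all make it.

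The sequences are shown because the 2 strands have different seeds, the bases 2 to 8 that pair with targets, so that a change in each strand would bear on different messenger RNAs. They come from RefSeq, build GRCr8, in which both array names matched a mature sequence (miR-21 is now called miR-21-5p and miR-21* is miR-21-3p). Seeds are in capitals, written 5′ to 3′.
miR-21: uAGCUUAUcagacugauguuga
miR-21*: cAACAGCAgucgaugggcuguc
Each strand has 22 bases, and no other mature rat miRNA among the 693 names of the RefSeq table carried either seed. The guide had 8 G or C bases and the passenger 13. The longest run that the guide shared with another mature sequence of the table was 9 bases, with miR-541-5p, and that of the passenger was 8 bases, with miR-3570 and miR-433-3p. Probe sequences were not used here, so whether the probes separate these was not tested.

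The hairpin shows how the strands lie in their precursor, with the guide first and the passenger second, both in capitals.
mir-21 hairpin: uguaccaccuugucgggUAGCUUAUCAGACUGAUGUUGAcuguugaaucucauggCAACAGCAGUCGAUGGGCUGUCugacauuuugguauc
It lies at chr10:71902600-71902691 on the minus strand of GRCr8 and is 92 bases long. The genes next to it in the annotation are Tubd1 and Vmp1, and neither overlaps the hairpin. In the structure of lowest energy that RNAfold predicted (-42.6 kcal/mol), 19 bases of the guide paired with the passenger strand. Both strands thus come from 1 stem, and their amounts share 1 source.

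The guide strand was detected on both arrays and was higher in the injured artery. Its signal, in intensity units as deposited, was 1065 without injury and 4915 after injury. The uninjured value was 130-fold and the injured value 999-fold above the highest of the 7 negative control features of its array, so both were far from background. After each array was scaled to its 75th percentile over the 158 miRNAs detected on both arrays, the log2 ratio of injured to uninjured was 2.29, a 4.90-fold difference. It ranked 4 among those 158 miRNAs, of which 20 were at least 2-fold higher in the injured artery, or 12.7%. At least 2-fold lower were 6, or 3.8%. The median log2 ratio of all 158 was 0.14.

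The passenger strand was detected on the injured array only, and close to background. Its signal was 3.20 without injury, where the flag marks it as not detected, and 11.8 after injury, where the flag marks it as detected. Of all 350 miRNA features, 26 were detected on the injured array only, or 7.43%. On the uninjured array the negative controls ran from 1.33 to 8.19, which encloses the passenger's signal, and 22 undetected miRNAs were brighter than it. On the injured array the negative controls ran from 0.353 to 4.92, and the passenger stood 2.39-fold above the highest of them and above every undetected miRNA, the highest of which was at 5.98. Its ratio is therefore a lower bound. Set against the lowest detected signal of the uninjured array, 3.43, the bound was 3.64-fold, or 1.86 in log2. That floor is lenient, because undetected miRNAs of that array reached 8.84. Set against 8.84, the highest undetected signal, the passenger was at least 1.41-fold higher, a log2 bound of 0.50.

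**Figure D1:**
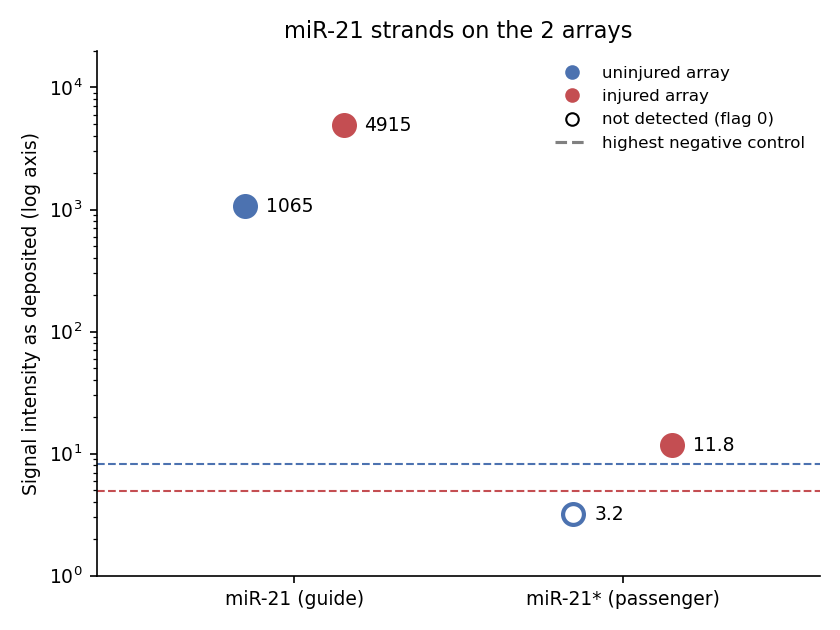
Signal intensity as deposited (log axis) of miR-21 and miR-21* on the uninjured (blue) and injured (red) array, 1 array each; open points were not detected and dashed lines mark the highest negative control of each array. miR-21 stands at 1065 and 4915, far above both lines, whereas miR-21* stands at 3.20, below the uninjured line, and at 11.8, above the injured line.

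miR-21 stood apart from the other bright miRNAs. The 22 miRNAs with a higher signal than miR-21 on the uninjured array had log2 ratios from -1.18 (miR-494) to 0.54 (miR-29b), with a median of 0.08, and none of them was at least 2-fold higher. The 22 miRNAs within 2-fold of its uninjured signal ran from -2.47 (miR-451) to 0.72 (miR-199a-5p), with a median of 0.09. None of those was at least 2-fold higher, beside 12.7% of all 158 miRNAs. These sets are not separate, since miR-494 and others are in both. By signal, miR-21 was in place 23 without injury, between miR-494 and let-7d, and in place 3 after injury, between let-7c and miR-125b-5p. Signal also depends on the probe, so these places do not order the miRNAs by abundance.

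The gain of miR-21 in unscaled signal, 3849, was the largest of the 350 miRNAs, and the next was 633 for miR-16. miR-21 made up 1.12% of the summed miRNA signal without injury and 5.04% after it. The summed signal was 95491 and 97479, a gain of 1988, so the gain of this 1 feature exceeded that of the whole array. Without miR-21 the sums were 94426 and 92564, a difference of -1861. In these units miR-143, the smooth muscle miRNA with the highest signal on both arrays, had the largest loss, from 17014 to 13992.

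The miRNAs nearest to miR-21 in log2 ratio were much dimmer than it. Next above it were miR-17-5p, of a cluster abundant in dividing cells (2.34), miR-142-5p, from a hairpin made in blood cells (2.49), and miR-146b, a damper of innate immune signals (2.56). Next below it were miR-142-3p, the other strand of the miR-142 hairpin (1.88), miR-20a, of the same cluster as miR-17-5p (1.73), and miR-223, found in myeloid cells (1.67). The brightest of these 6 was miR-223, with signals of 86.2 and 259. With 1 array in each group, likeness here means only a similar ratio between these 2 arrays.

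**Figure D2:**
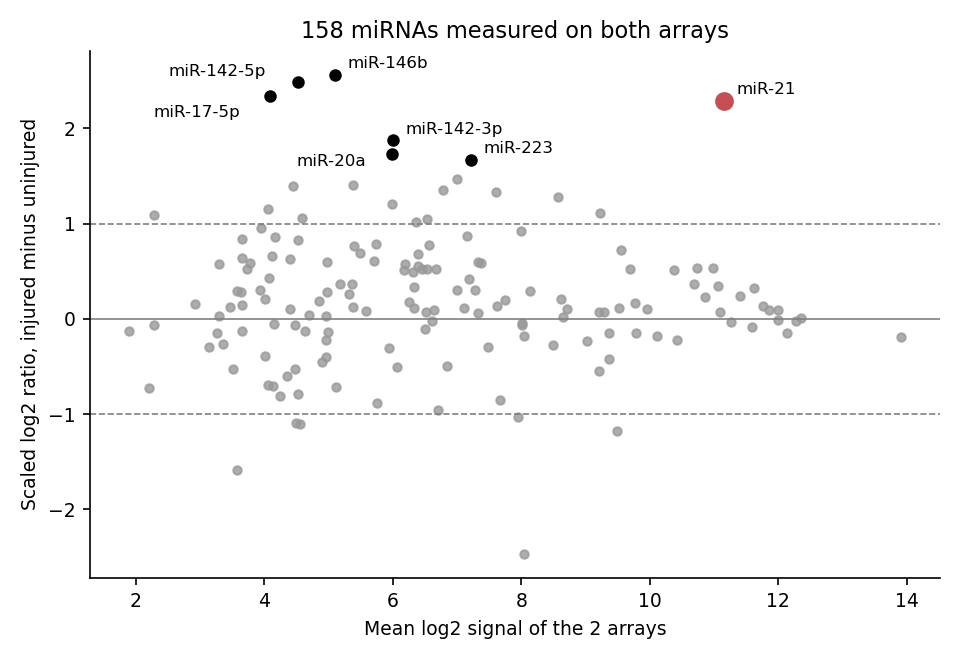
Scaled log2 ratio (injured minus uninjured, y axis) against the mean log2 signal of the arrays (x axis) for the 158 miRNAs detected on both; dashed lines mark 2-fold. miR-21 (red, log2 ratio 2.29) lies at a mean log2 signal of 11.2, and the next brightest miRNA above the upper line is miR-214 at 9.22, while the 6 miRNAs nearest to it in ratio (black) lie at lower signal.

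The size of the miR-21 difference depended on how the arrays were aligned, while its sign was positive under each alternative tried. Its log2 ratio was 2.21 without scaling, 2.29 with quantile normalization, 1.85 when the arrays were aligned at their medians, 1.80 by the 75th percentile of all miRNA features and 1.70, or 3.25-fold, with the control features aligned. Over the 158 miRNAs, the median move of a log2 ratio under these alternatives was -0.09, -0.30, -0.44, -0.50 and -0.59. miR-21 ranked 1 under quantile normalization and 4 under each of the others, and uniform scaling cannot change a rank. The 20 higher and 6 lower miRNAs became 17 and 7, 12 and 11, 8 and 16, 7 and 20, and 7 and 23, in the same order of alternatives. The distance of miR-21 above the median miRNA was 2.15, and 2.32 under quantile normalization.

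The bound of miR-21* depended on the floor as well as on the scaling. Against the lowest detected signal it stayed above 2-fold, from 2.42-fold with the control features aligned to 3.64-fold. Against the highest undetected signal it was 1.33-fold without scaling, 1.07-fold with quantile normalization and 1.04-fold when medians were aligned. Under the 75th percentile of all features, or with the control features aligned, the injured signal did not exceed that floor, so no bound above 1 could be given.

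**Figure D3:**
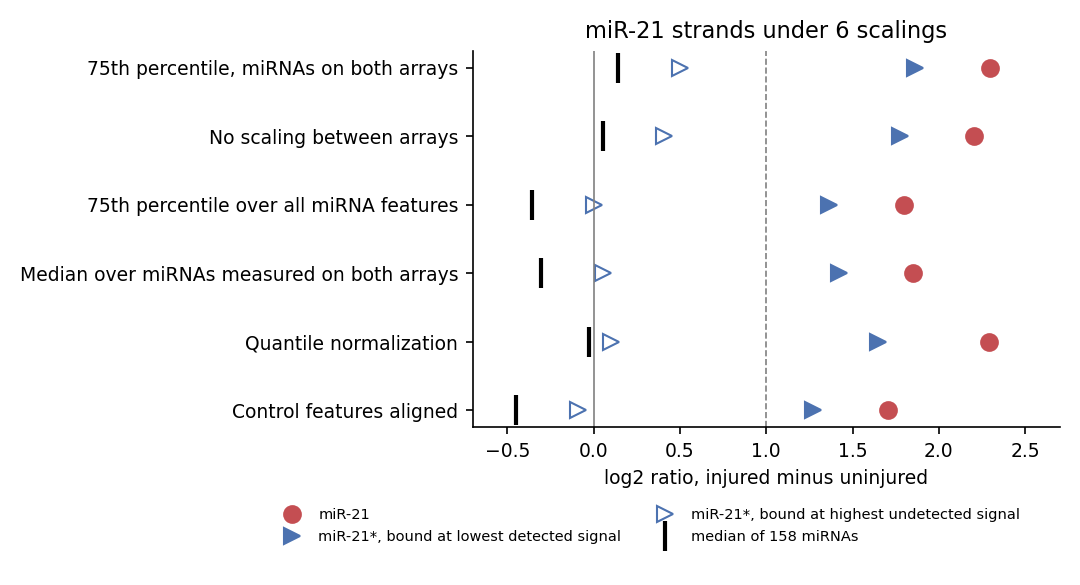
Log2 ratio of injured to uninjured (x axis) for miR-21 (red circles), the lower bound for miR-21* against the lowest detected (filled triangles) and the highest undetected signal (open triangles) of the uninjured array, and the median of 158 miRNAs (black ticks) under 6 ways of aligning the arrays. miR-21 stays between 1.70 and 2.29, right of the dashed 2-fold line, whereas the open triangles lie between -0.09 and 0.50.

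The strands could be compared in their change between the arrays, but not in their level, since each has its own probe. Taking the deposited signals as they stand, the passenger was 3.91-fold higher after scaling and the guide 4.90-fold, and their log2 ratios differed by -0.33 (passenger minus guide). Because the passenger was not detected on the uninjured array, this difference has only a lower bound, -0.43 against the lowest detected and -1.80 against the highest undetected signal. The guide was thus higher on the injured array. The bound of the passenger was above 1 against the lowest detected signal. Against the highest undetected signal it ran from 1.41-fold to 0.937-fold over the 6 scalings, and was not above 1 in 2 of them. A rise of the passenger is therefore not established, and whether the strands differed by the same factor cannot be told from these arrays.

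Other hairpins show how far the strands of 1 hairpin differed on these arrays. Hairpins were paired by name (a name with its star form, or 5p with 3p), which leaves out strands whose names differ otherwise. Both strands were detected on both arrays for 18 such hairpins, and the absolute difference between their log2 ratios had a median of 0.40. The differences ran from -1.19 (miR-28* minus miR-28) to 0.57 (miR-23a* minus miR-23a). The 0.33 of the deposited miR-21 signals rests on a passenger signal not detected on the uninjured array, so miR-21 cannot be placed among these hairpins. Among the 80 hairpins paired in this way, 47 first-named strands were detected on both arrays. The guide of miR-21 was 1 of 7 of these 47 that were at least 2-fold higher, beside 12.7% of all 158 miRNAs. Of the partner strands of the other 6, that of miR-142-5p was higher too (miR-142-3p, 1.88) and miR-136* had a log2 ratio of 0.13. The remaining 4, miR-17-3p, miR-20a*, miR-379* and miR-532-3p, were detected on neither array.

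miR-21* had the highest signal of the star strands detected on the injured array only, but was in place 10 by signal among all 26 miRNAs detected on that array only. Of 58 features named with a star, 15 were detected on both arrays, 5 on the injured array only, 2 on the uninjured array only and 36 on neither. The other 4 on the injured array only were miR-322* at 5.51, miR-125b* at 3.80, miR-7a* at 3.14 and miR-338* at 1.36, all below the highest undetected signal of that array, 5.98. miR-21* at 11.8 was above it, and 31 of the 184 miRNAs detected on the injured array had a signal no higher than that of miR-21*, itself included.

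**Figure D4:**
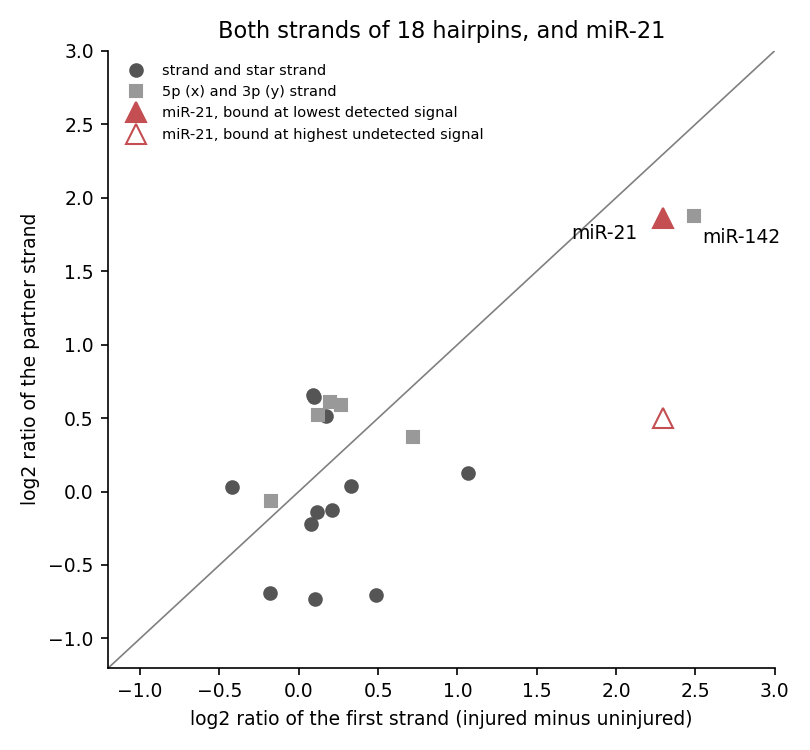
Log2 ratio of injured to uninjured for the first-named strand (x axis) and its partner strand (y axis) of the 18 hairpins paired by name with both strands detected on both arrays, with miR-21 as triangles at its lower bounds (1.86 and 0.50 for the passenger); the diagonal marks equal change. miR-21 lies at the high end of the x axis beside miR-142, and its passenger may lie anywhere above the lower triangle.

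The guide strand holds the letters CAGAC at its bases 9 to 13, the sequence known as the SMAD-binding element in the stem of primary miR-21. Mature sequences were searched for CAGAC as written, and 13 of the 693 names in the RefSeq table held it, or 1.88%. Of the 417 hairpins, 34 held it. A hairpin is longer than a mature strand and has more places for the letters, so these 2 shares cannot be compared. Only 70 of the 350 array names matched a mature sequence (68 by an identical name and the 2 strands of miR-21). The other array names were not searched, so further features may hold the letters. Of the 70 matched names, 26 were detected on both arrays. Among the 70, 3 held the letters, shown with the motif in capitals.
miR-21: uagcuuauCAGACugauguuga
miR-199a-5p: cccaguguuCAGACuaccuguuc
miR-215: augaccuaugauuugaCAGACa
miR-199a-5p, a miRNA of mesenchymal cells, had signals of 604 and 938 and a log2 ratio of 0.72, and of 0.13 after aligning the control features. miR-215 was detected on neither array. A match in these letters is a description and was not tested as a SMAD site.

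Other miRNAs known to favour smooth muscle growth or to be reported in injured arteries were mostly higher, and all but miR-146b had a lower ratio than miR-21. Of the 7 on that list beside miR-21, all were detected on both arrays, 4 reached 2-fold higher, beside 12.7% of all 158, and none 2-fold lower. The 4 became 1, miR-146b, after aligning the control features, beside 4.43% of all 158. miR-221 and miR-222, a pair that represses the cell-cycle inhibitor p27, had log2 ratios of 1.47 and 1.02, miR-31 had 1.28 and miR-146a 0.77. The ratios of miR-24 (0.09) and miR-26a (-0.08) were close to 0, and were -0.50 and -0.67 after aligning the control features. The median of the list was 1.02, beside 0.14 over all 158, and 0.43 with the control features aligned, beside -0.45 over all 158. This list and those below were chosen with earlier results of these data known, so their shares and medians are descriptions only.

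Of miRNAs known to respond to AP-1, NF-kB or CREB, factors switched on by growth and inflammatory signals, 6 besides miR-21 were among the features. The 5 detected on both arrays all had positive ratios, with a median of 1.02, while the median over all 158 was itself positive, at 0.14. At least 2-fold higher were 3 of the 5 (12.7% of all 158), or 1 after aligning the control features (4.43% of all 158). miR-146a, miR-146b, miR-221 and miR-222 stand in the growth list too, so these lists are not separate evidence. miR-212 was at 0.42 on the log2 scale, or -0.18 after aligning the control features. miR-132, from the same transcript as miR-212, was detected on the injured array only. Its bound was 5.51-fold against the lowest detected and 2.14-fold against the highest undetected signal, and these were 3.66-fold and 1.42-fold after aligning the control features.

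Markers of other cells differed between the arrays too. In bulk tissue, a change in the number of cells of a type and a change of RNA per cell cannot be told apart. Among 5 leukocyte miRNAs, 3 reached 2-fold higher, beside 12.7% of all 158 (miR-142-5p, miR-142-3p and miR-223). The lymphocyte miRNA miR-150 had a log2 ratio of -0.50 and miR-342-3p one of 0.19. After aligning the control features these were -1.09 and -0.40. The summed leukocyte signal was 241 without injury and 515 after it. All 3 mesenchymal features, miR-199a-3p, miR-199a-5p and miR-214, had positive ratios, with a median of 0.72. The median over all 158 was itself positive, at 0.14. After aligning the control features these medians were 0.13 and -0.45, and miR-199a-3p was at -0.22. The summed mesenchymal signal was 2521 and 3611. The part of leukocytes or mesenchymal cells in the miR-21 difference was not tested.

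Other marker lists were mostly lower or near 0. All 5 contractile smooth muscle features had negative ratios, except that miR-143 was at 0 with quantile normalization, and 3 were at least 2-fold lower, beside 3.8% of all 158 (4 after aligning the control features, beside 14.6%). The 3 were miR-1, miR-133a and miR-133b, which are also miRNAs of striated muscle. The summed signal of the 5 went from 18170 to 14660, most of it from miR-143. The erythroid miR-451 and miR-144 had log2 ratios of -2.47 and -1.11, with a summed signal of 677 and 125. Ratios of the endothelial strands were 0.08 for miR-126 and -0.22 for miR-126* (-0.51 and -0.81 after aligning the control features), with a summed signal of 626 and 615. In the nerve list 4 of 7 members were detected only on the uninjured array, miR-124, miR-138, miR-9 and miR-9*, beside 8 of all 350 features, or 2.29%. Against the highest undetected signal of the injured array, these were at least 2.56-fold, 4.19-fold, 1.17-fold and 2.02-fold lower after injury. miR-9, at 7.43 on the uninjured array, was below the highest negative control there, 8.19. miR-338 had a ratio of -0.85 and miR-128 one of 0.36 (-1.44 and -0.23 after aligning the control features), and miR-219-5p was detected only on the injured array. The summed nerve signal was 385 and 227, and miR-124 stood at 1 on the injured array, the value at which 109 of the 350 miRNAs of that array are listed. The part of these cells in the miR-21 difference was not tested either.

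**Figure D5:**
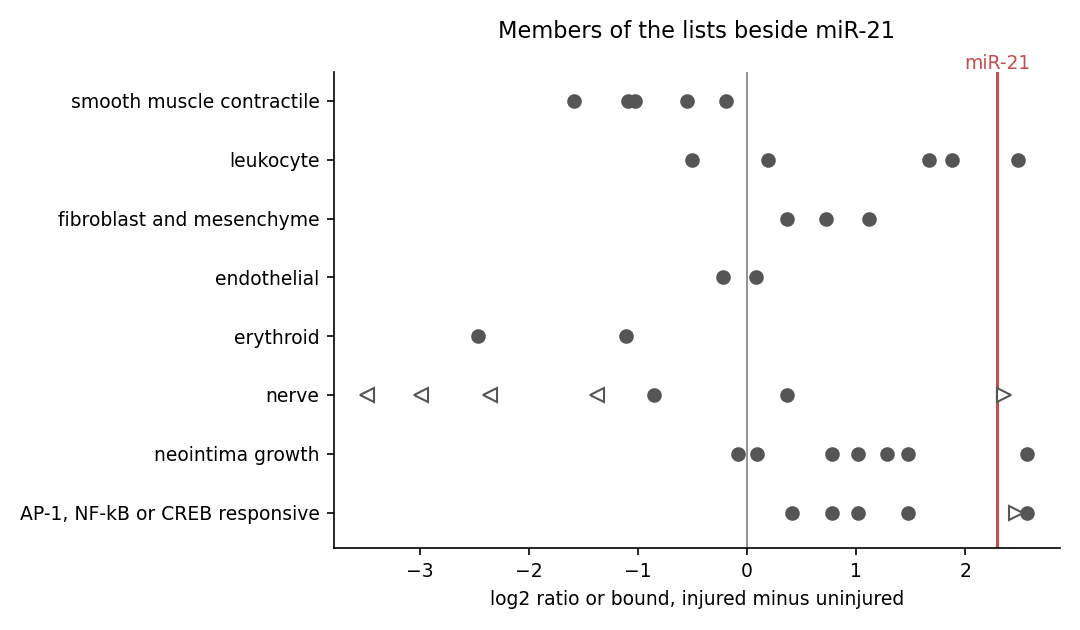
Log2 ratio of injured to uninjured (x axis) for the members of each list (y axis), as filled points where both arrays detected the miRNA and open triangles for bounds pointing away from 0; the red line marks miR-21 at 2.29. Of the filled points, miR-142-5p of the leukocyte list (2.49) and miR-146b, which appears in the lowest 2 lists (2.56), lie right of the line.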

How the data were processed

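Per the labels' protocols, total RNA was extracted with Trizol and labelled with Cy3 using an Agilent miRNA reagent. The authors deposited 1 signal intensity and 1 flag per feature and array, with 350 miRNA and 22 control features. Scanner software, background subtraction and normalization are unknown from these sources. The flag was 0 on all 7 negative controls and was read as detection. The deposited value table holds a ratio, equal to injured over uninjured intensity for 349 of 349 shared names (tolerance 1e-05).

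Log2 intensities were scaled by the 75th percentile, on each array, of the 158 miRNAs detected on both (intensities of 401 and 377), which raised each log2 ratio by 0.09. The code for this scaling and the 2-fold calls was checked on simulated data without noise. That check did not cover the bounds or the alternative scalings. Alternatives covered the scaling, the floor behind bounds, the deposited table and filters on dim features. Aligning the control features lowers every log2 ratio by 0.59, also where no such value is printed. Named were both strands, the 3 nearest ratios on each side, the neighbours in signal, shared seeds or CAGAC, star strands on the injured array only, and the lists. miR-155 was not analysed here. The members and lists were chosen with earlier results of these data known. Python 3.11.15, NumPy 2.4.6, pandas 2.3.3 and RNAfold 2.7.2 were used.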

Additional observations from a re-analysis of the deposited data

How the results depend on the processing

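With 1 array in each group, no replicate could be left out and no alternative measures replicate error. No paired analysis was possible because each group holds 1 array. The log2 ratio of miR-21 was 2.29 and moved by over 1.5-fold only with the control features aligned (1.70), among the 6 alternatives tried for it. The bound of miR-21* was 1.86 against the lowest detected signal. It moved by as much with the control features aligned (1.27) and with the highest undetected signal as floor (0.50). The 6 detected control features were 1.24-fold to 1.94-fold brighter on the injured array, whereas the 20 brightest miRNAs had a median unscaled log2 ratio of 0.0025; the cause was not tested. The number at least 2-fold higher was 20, and became 7 with the 75th percentile of all features, 8 with the medians aligned, 12 with quantile normalization, 7 with the control features aligned and 35 over the 202 miRNAs with signals above 1 whatever their flag. The number at least 2-fold lower was 6, and became 20, 16, 11, 23 and 10 under the same alternatives.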
